A study of Mus musculus with 28 samples.

Results

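Adipokines are hormones, enzymes and carrier proteins that adipose tissue secretes. The set described here holds 7 genes, taken by gene name from the array's probe list: Adipoq (adiponectin), Lep (leptin), Retn (resistin), Cfd (complement factor D, or adipsin), Rbp4 (retinol binding protein 4), Nampt (nicotinamide phosphoribosyltransferase) and Agt (angiotensinogen). They are 7 of 21047 genes tested and of 28034 genes on the array, and 10 probes measure them. The series compared mouse tissues, cells taken from liver and liver organoids on 28 arrays in 13 groups, each array carrying Cy3-labelled cRNA of a sample beside Cy5-labelled reference RNA of mouse. All samples are labelled C57BL/6, with no age, sex or number of animals per array in the labels.

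The groups were brown adipose tissue, white adipose tissue and muscle of wild-type mice (3 arrays each), pancreas of wild-type mice (2), a liver organoid in differentiation medium (DM, 1 array that the labels mark as without replicate), liver organoids in expansion medium (EM, 2), duct cells sorted for Mic1-1c3, a surface antigen of duct cells (2), Lgr5-sorted cells at day 6 of carbon tetrachloride treatment (CCl4, 2), the hepatocyte fraction (2), whole liver (2), adult liver of wild-type mice (2), and liver at day 3 and at day 13 of CCl4 treatment (2 each). The labels do not say whether the days count dosing or the time since a dose. CCl4 is a toxin that injures the hepatocytes around central veins, and the organoids were grown from single Lgr5-sorted cells. The labels name no reporter allele, depot of fat or muscle. They call the arrays biological replicates without naming animals, so a p-value measures the spread between arrays.

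White adipocytes release leptin, a satiety signal read by the receptor Lepr, and adiponectin, which acts through Adipor1, Adipor2 and Cdh13 and raises the response of liver and muscle to insulin. In mice resistin also comes from adipocytes and opposes insulin action. Adipsin is the protease that cleaves factor B in the alternative pathway of complement, a step for which fat is the known source in mice. The other 3 members are made outside fat as well: hepatocytes release Rbp4, which carries retinol in plasma bound to transthyretin (Ttr), and angiotensinogen, the protein that renin cleaves, while Nampt makes the precursor of NAD from nicotinamide inside most cells and is also found in plasma as visfatin.

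The probes of Adipoq and Retn are printed because the clearest differences between fat and liver rest on them. Each is 60 bases long, with the position that the files give in mm9 (plus strand): Adipoq chr16:23157576-23157635, Retn brighter probe chr8:3656107-3656928 and Retn second probe chr8:3656145-3656966. Each Retn probe spans 822 bases of the genome because the position skips a stretch between its ends. Capitals mark the 22 bases that both Retn probes hold.
Adipoq probe: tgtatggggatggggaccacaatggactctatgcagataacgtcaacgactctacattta
Retn brighter probe: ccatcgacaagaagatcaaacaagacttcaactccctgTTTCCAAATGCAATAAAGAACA
Retn second probe: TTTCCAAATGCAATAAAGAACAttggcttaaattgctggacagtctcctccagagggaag

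The promoters of Adipoq, Lep, Retn and Cfd are printed because these 4 members had their highest ratios in white adipose tissue. They are the 250 bases before the RefSeq start site in GRCm38.p6, all on the plus strand: Adipoq chr16:23146286-23146535, Lep chr6:29059971-29060220, Retn chr8:3655520-3655769 and Cfd chr10:79890603-79890852. The searched letters were the TATA box TATAAA, the box CCAAT, the C/EBP-type motif TTGCNNAA and the E-box CACGTG, on both strands, and capitals mark the matches.
Adipoq promoter: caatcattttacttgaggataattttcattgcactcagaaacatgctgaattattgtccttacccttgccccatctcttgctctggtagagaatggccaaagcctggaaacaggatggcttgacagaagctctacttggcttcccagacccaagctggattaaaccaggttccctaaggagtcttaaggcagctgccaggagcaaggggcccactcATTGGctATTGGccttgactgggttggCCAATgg
Lep promoter: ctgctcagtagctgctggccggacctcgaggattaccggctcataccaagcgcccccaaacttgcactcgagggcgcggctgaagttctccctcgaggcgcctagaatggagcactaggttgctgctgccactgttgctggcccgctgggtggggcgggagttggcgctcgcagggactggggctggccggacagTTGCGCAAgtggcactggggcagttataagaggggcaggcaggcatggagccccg
Retn promoter: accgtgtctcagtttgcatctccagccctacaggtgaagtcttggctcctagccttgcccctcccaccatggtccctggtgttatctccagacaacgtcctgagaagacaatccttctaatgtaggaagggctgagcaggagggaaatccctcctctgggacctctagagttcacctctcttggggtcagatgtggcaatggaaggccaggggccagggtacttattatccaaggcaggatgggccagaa
Cfd promoter: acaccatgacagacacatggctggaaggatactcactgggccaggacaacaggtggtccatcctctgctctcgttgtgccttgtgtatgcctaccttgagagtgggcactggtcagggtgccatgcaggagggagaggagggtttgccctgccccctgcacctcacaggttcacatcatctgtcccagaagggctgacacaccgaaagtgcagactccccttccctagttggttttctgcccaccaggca

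The Adipoq window held CCAAT 3 times, at 34 to 30 and 27 to 23 bases before the start on the minus strand and at 7 to 3 bases on the plus strand. The Lep window held TTGCGCAA at 55 to 48 bases before the start, which reads the same on both strands. None of the 4 letter strings was in the Retn or Cfd window. Among 32851 RefSeq promoter windows, 33.8% held CCAAT, 9.56% TTGCNNAA, 12.4% TATAAA and 6.02% CACGTG. Of the members made by hepatocytes, Agt held TATAAA at 30 to 25 bases before its start, and the other of the 2 Rbp4 start sites held it at 28 to 23 bases. No motif was shared by Adipoq, Lep, Retn and Cfd.

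The arrays differed in signal. Probes well above background in Cy3 made up 17.7% on a pancreas array and 69.1% on a brown adipose tissue array, with the Lgr5-sorted pair at 21.5 and 18.5%. Marker genes fitted most labels: all 8 hepatocyte markers were above background on every liver and hepatocyte array, all 6 acinar markers on both pancreas arrays, and all 6 bile duct markers on both EM and both sorted duct cell arrays. The 3 muscle arrays also carried 13 or 14 of 14 adipocyte markers, and white adipose tissue replicates 1 and 3 and all brown adipose tissue arrays carried all 6 skeletal muscle markers. Brown adipose tissue replicate 1 carried Ins1 at 4.97 (log2 Cy3/Cy5), which was not above background on the other 2. Lgr5-sorted cells carried the macrophage gene Adgre1 at 5.98 and 3.73. In tissue, fewer cells of a type and less RNA per cell cannot be told apart.

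Levels are given as log2 Cy3/Cy5, the ratio of a sample to the shared RNA after loess within each array, so 1 unit is a doubling and levels of different genes are not comparable. Rbp4, Nampt and Agt were well above background in Cy3 on 28, 27 and 26 of 28 arrays, Cfd on 19, Adipoq on 14, Retn on 11 and Lep on 4. A gene was called where the limma fit over all 28 arrays gave a Benjamini-Hochberg adjusted p under 0.05 and a change of at least 1 log2 unit. The plot of all 7 genes by array shows 3 kinds of pattern in the group means of this ratio. Adipoq, Lep, Retn and Cfd were highest in white adipose tissue, Rbp4 and Agt in hepatocytes and whole liver, and Nampt in brown adipose tissue. The order differed in part in Cy3 alone, as given below.

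**Figure D1:**
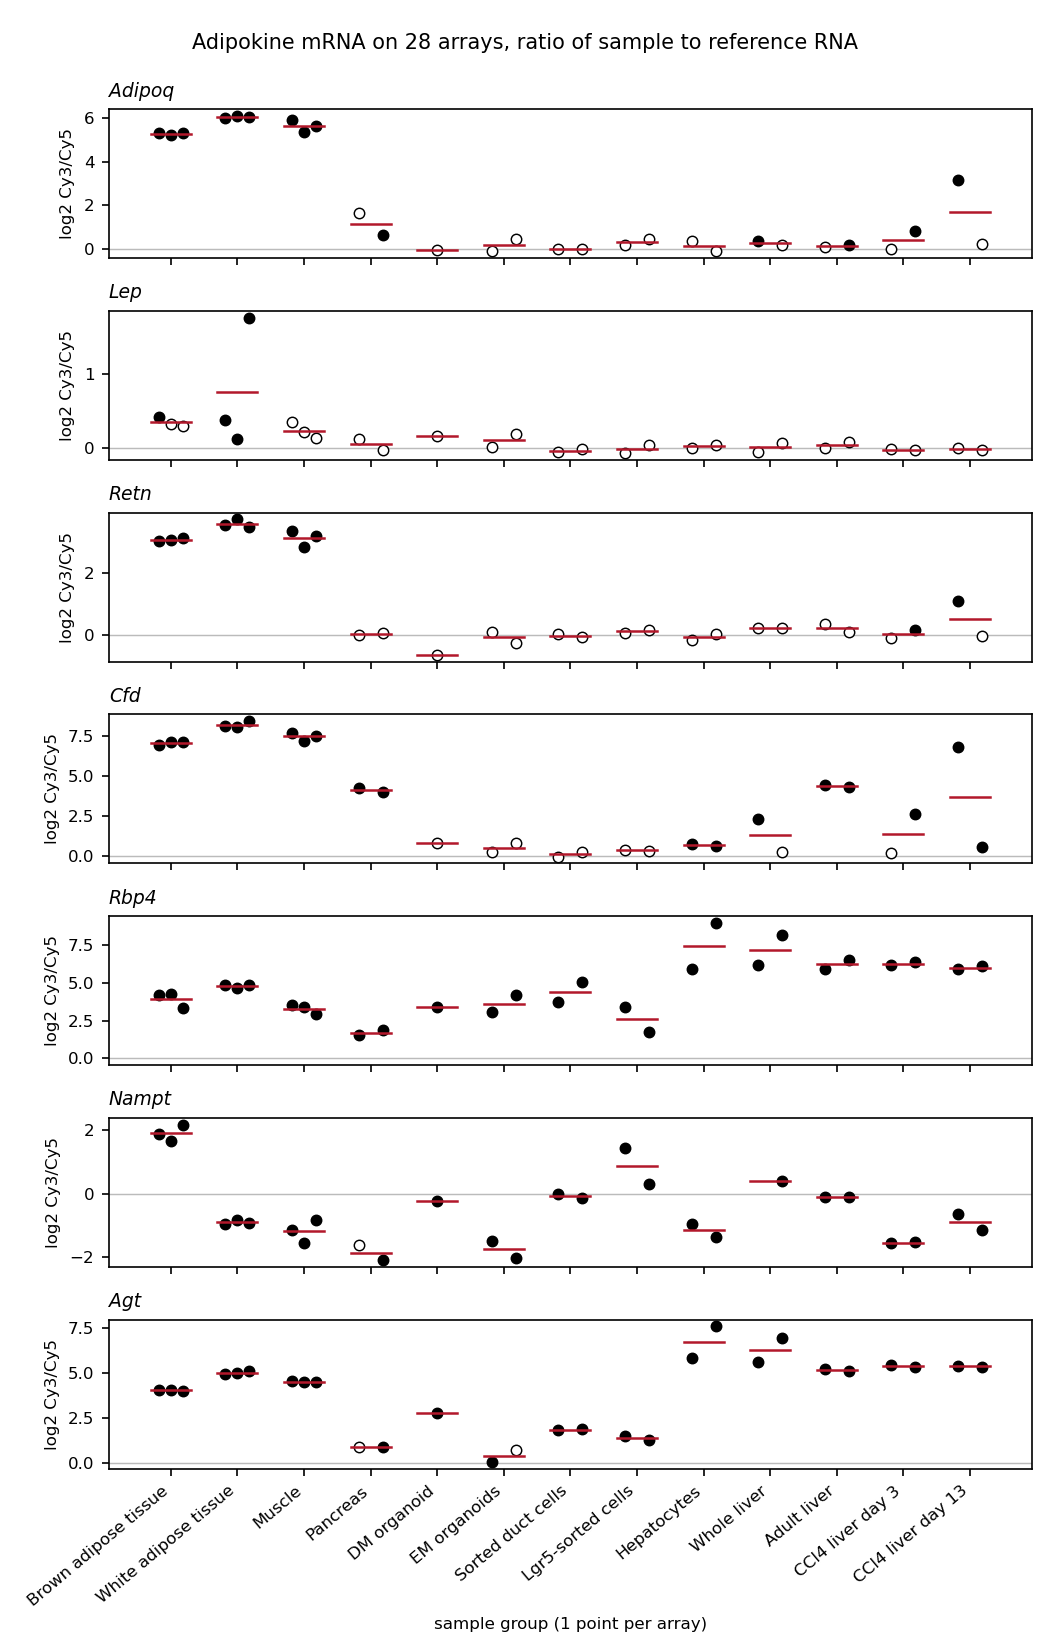
Each panel shows 1 adipokine gene as log2 Cy3/Cy5 on each of 28 arrays in 13 groups, with a red bar at the group mean, filled points where Cy3 was well above background and open points where it was not. Adipoq lies between 5.23 and 6.09 on the 9 fat and muscle arrays and at or below 3.17 on the other arrays, and Nampt lies above 1.6 on the 3 brown adipose tissue arrays.

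Adipoq was far above liver in both kinds of fat. It gave 6.01, 6.09 and 6.05 on the white adipose tissue arrays and 5.33, 5.23 and 5.30 on the brown adipose tissue arrays, against 0.09 and 0.17 in adult liver, where only replicate 2 was above background. Neither kind of fat overlapped liver. The change was 5.92 ± 0.51 log2 units in white adipose tissue over adult liver (SE, n = 3 and 2, adjusted p = 7.55e-09) and 5.16 ± 0.51 in brown adipose tissue over adult liver (adjusted p = 5.66e-08).

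Retn followed the same order. Its brighter probe gave 3.57, 3.74 and 3.51 in white adipose tissue and 3.03, 3.08 and 3.15 in brown adipose tissue, and it was not above background on either adult liver array (0.34 and 0.08). Fat and liver did not overlap. Since liver gives only a bound, the sample channel was used alone under 2 scalings between arrays, and the lower bound of both is given here and below. Retn was at least 174-fold higher in white adipose tissue than in adult liver (adjusted p of the ratio = 3.73e-10) and at least 50.6-fold higher in brown adipose tissue (adjusted p = 4.43e-09). The second Retn probe gave log2 ratios 5.24 and 4.79 higher in white and in brown adipose tissue than in adult liver, where the brighter probe gave 3.40 and 2.87.

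Cfd was high in fat but not absent from liver. It gave 8.12, 8.07 and 8.42 in white adipose tissue and 6.96, 7.14 and 7.11 in brown adipose tissue, against 4.44 and 4.33 in adult liver, with no overlap. Whole liver was lower and uneven, at 2.33 on replicate 1 and 0.28, not above background, on replicate 2. The change was 3.82 ± 1.04 in white adipose tissue over adult liver (adjusted p = 0.00524) and 2.68 ± 1.04 in brown adipose tissue over adult liver (adjusted p = 0.0399). The call in brown adipose tissue was lost without any single array of either group, at changes of 2.63 to 2.74. It was also lost with slide (adjusted p = 0.0556) or scan day (adjusted p = 0.0939) as a block. Both calls were lost with Agilent's own log ratio, where the changes were 2.08 and 0.53. Cy3 alone, over each array's upper quartile, gave 7.03 (adjusted p = 1.46e-05) and 6.72 (adjusted p = 2.42e-05). The medians of all genes were 0.27 and -0.51 there.

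Lep, the satiety hormone, was dim throughout. It was above background on all 3 white adipose tissue arrays, at 0.37, 0.12 and 1.75, and on brown adipose tissue replicate 1 at 0.42, and on no other array of the series. Replicate 3 of white adipose tissue stood above the other 2, of which replicate 1 lay among the brown adipose tissue arrays and replicate 2 below them. The change over adult liver, 0.70 ± 0.29, gave an adjusted p of 0.0511 and was not called, while without white adipose tissue replicate 2 it was 1.02 and called (adjusted p = 0.00404). In the sample channel Lep was at least 1.77-fold higher in white adipose tissue than in adult liver.

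The Lep values depended on the processing. The Cy5 signal of Lep was above background on 0 of 28 arrays, at 3.4 to 20.3 above local background. The Lep ratios thus divide by a reference signal near the floor. With Agilent's own log ratio, Lep gave 4.16, 4.68 and 5.44 on the white adipose tissue arrays, 2.80, 2.17 and 2.51 on the brown adipose tissue arrays, and a mean of 0.29 in adult liver. On that scale the change was 4.47 in white adipose tissue over adult liver (adjusted p = 2.37e-09) and 2.21 in brown adipose tissue over adult liver (adjusted p = 1.62e-05). Brown over white adipose tissue gave -2.27 on that scale (adjusted p = 1.68e-05) and -0.40 ± 0.26 on the loess ratio (adjusted p = 0.238). Cy3 alone, over each array's upper quartile, put Lep 1.41 higher in white adipose tissue than in adult liver (adjusted p = 0.00392). It put brown adipose tissue at -0.99 over adult liver (adjusted p = 0.0288) and at -2.40 over white adipose tissue (adjusted p = 1.12e-05). The medians of all genes were 0.27, -0.51 and -0.71. In Cy3 alone Lep was highest in Lgr5-sorted cells, where it was not above background.

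Counted over the set, 3 of 7 genes were called higher in white adipose tissue than in adult liver (Adipoq, Retn and Cfd) and none lower, against 14.5% higher and 13.4% lower over all genes. The median change was 0.70 over the members and 0.01 over all genes. In brown adipose tissue 4 of 7 were called higher than in adult liver (Adipoq, Retn, Cfd and Nampt) and 2 lower (Rbp4 and Agt), against 15.8% higher and 13.3% lower over all genes, with medians of 2.01 and 0.03. The fat and adult liver arrays shared no slide or scan day, and group cannot be told apart from batch in these comparisons. The same holds below for muscle and pancreas over adult liver, and for brown adipose tissue over muscle.

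Muscle also carried the genes of fat. Adipoq gave 5.90, 5.36 and 5.62 on the muscle arrays, Retn 3.39, 2.84 and 3.22, and Cfd 7.70, 7.21 and 7.52. All of these lay above adult liver, by 5.50 ± 0.51 (Adipoq, adjusted p = 1.40e-08), at least 11.03-fold (Retn, adjusted p = 2.07e-09) and 3.09 ± 1.04 (Cfd, adjusted p = 0.0161). Cfd was not called without adult liver replicate 1 or 2 (3.14 and 3.04) or with Agilent's log ratio (1.26, adjusted p = 0.507). In Cy3 alone Cfd was at 3.96 (adjusted p = 0.00385), with a median of -0.41 over all genes. Nampt was at -1.06 ± 0.29 (adjusted p = 0.0039) in muscle over adult liver, and at -0.87, short of 1 log2 unit, without muscle replicate 2 (-0.63 in Cy3 alone, adjusted p = 0.140). In all, 3 members were called higher and 2 lower (Rbp4 and Nampt) in muscle than in adult liver, against 19.9% higher and 15.9% lower over all genes, with medians of 0.19 and 0.00.

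Adipocyte markers were present on these arrays. The 14 adipocyte markers summed to 236 to 355 times the upper-quartile signal of the array in muscle, 778 to 1352 times in white adipose tissue, 1451 to 1638 times in brown adipose tissue, and 534 to 765 times in adult liver, where several are expressed by hepatocytes. Plin1, which coats the lipid droplet of adipocytes, gave 6.09, 4.95 and 5.40 in muscle, against 0.23 and 0.16, not above background, in adult liver. The part of adipocytes in the muscle values was not tested.

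On the ratio scale few members were called between either kind of fat and muscle. No member was called between white adipose tissue and muscle in limma, against 4.59% higher and 8.05% lower over all genes, and 2 members (Retn and Rbp4) had an unadjusted p under 0.05. Rbp4 was 1.49 higher in white adipose tissue (adjusted p over all probes 0.0741) and was called with scan day as a block (adjusted p = 0.0499). In Cy3 alone it was 1.92 higher (adjusted p = 0.000583), with a median of 0.48 over all genes. All arrays of both groups shared a scan day, and on the slide that held both groups Rbp4 differed by 1.93. Adipoq differed by 0.42 with an interval from -0.52 to 1.37, and Cfd by 0.73 with an interval from -1.22 to 2.67 (95% intervals). The second Retn probe gave 5.23, 5.19 and 5.49 in white adipose tissue, against 4.80, 3.5 and 4.05 in muscle, a change of 1.18 ± 0.28 (adjusted p over all probes 0.00319). Only Nampt was called between brown adipose tissue and muscle, against 10.6% higher and 13.2% lower over all genes. The median change of the members was 0.50 in white adipose tissue over muscle and -0.06 in brown adipose tissue over muscle, beside 0.00 over all genes in both.

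The Cy5 channel held the same RNA on all arrays, yet its signal at these probes was not the same. At the Adipoq probe it ran from 4 to 11040 above local background with a median of 35, and it was highest on the arrays with the brightest Cy3. Brown adipose tissue had Adipoq signals of 147994, 179364 and 148362 in Cy3 and 8752, 10721 and 11040 in Cy5, against 27418, 4585 and 10189 in Cy3 and 661, 182 and 288 in Cy5 on the muscle arrays. The log2 signals of both channels correlated at 0.97 over the 28 arrays for Adipoq, 0.96 for Retn, 0.95 for Cfd, 0.84 for Agt, 0.80 for Rbp4 and 0.54 for Nampt, given as a description of arrays that share the Cy5 RNA. No member spot was saturated. The part of this Cy5 signal in the ratios was not tested.

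**Figure D2:**
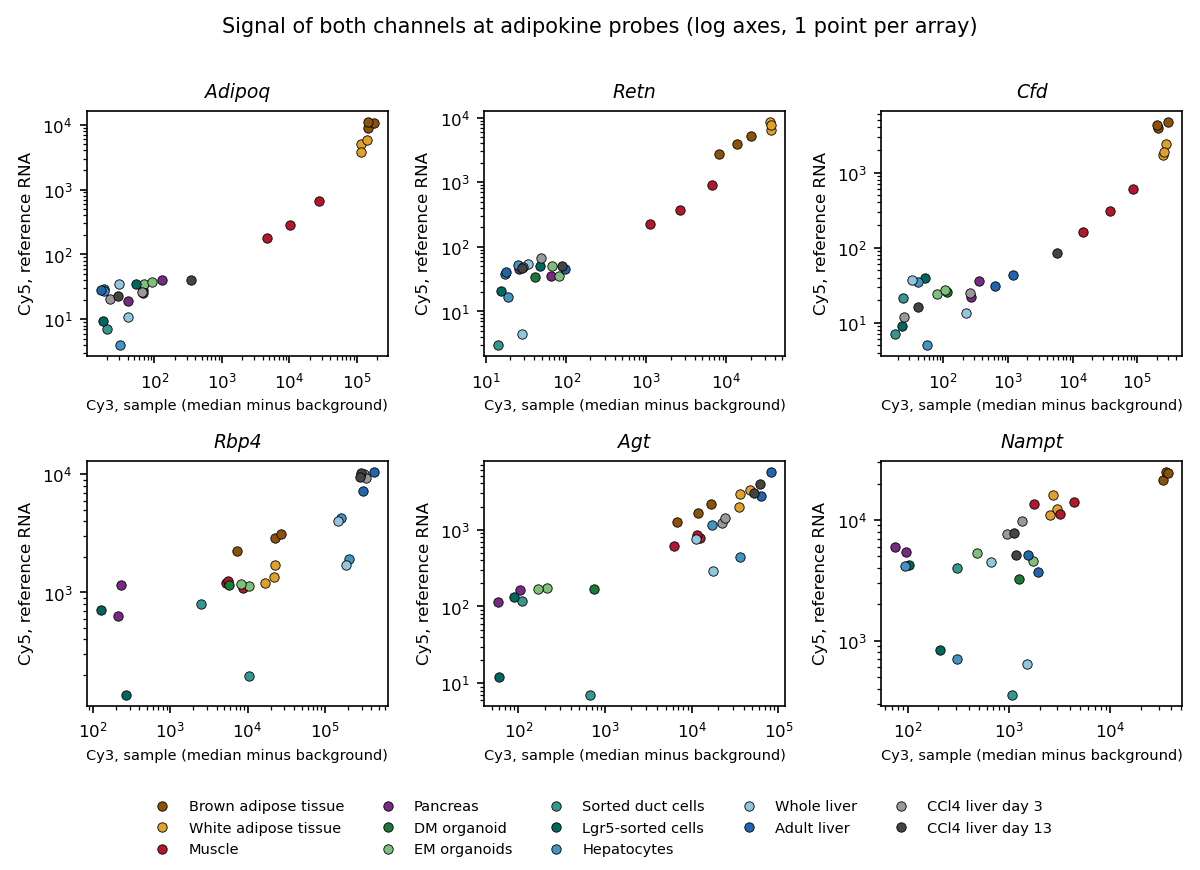
Cy5 signal of the shared RNA against Cy3 signal of the sample at 6 adipokine probes, both as median intensity minus local background on log axes, with 1 point per array coloured by group. At Adipoq, Retn and Cfd the Cy5 signal climbs with Cy3 across brown adipose tissue, white adipose tissue and muscle, while the Nampt points scatter more widely (r = 0.54 between the channels' log2 signals).

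Cy3 alone, scaled to each array's upper quartile, separated fat from muscle. On that scale Adipoq gave 7.24, 6.63 and 7.64 in white adipose tissue and 7.18, 7.30 and 7.58 in brown adipose tissue, against 4.66, 2.55 and 3.10 in muscle. Adipoq was 3.73 higher in white adipose tissue than in muscle (adjusted p = 3.08e-05), Retn 3.98 higher (adjusted p = 8.96e-07) and Cfd 3.07 higher (adjusted p = 0.0155). All genes shifted by a median of 0.48 on this scale, so relative to that shift the changes were 3.25, 3.5 and 2.60, and 84.4% of the genes called were higher in white adipose tissue, against 36.3% on the ratio scale.

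In brown adipose tissue over muscle the direction of 3 members turned with the scale. Adipoq changed by -0.34 on the ratio scale and by 3.92 in Cy3 alone (adjusted p = 5.48e-06), Retn by -0.06 and 2.36 (adjusted p = 0.000101), and Cfd by -0.41 and 2.76 (adjusted p = 0.0261). The median of all genes in Cy3 alone was -0.17. The ratio values of these 3 genes were not called. The second Retn probe gave 0.73 ± 0.28 on the ratio scale (adjusted p over all probes 0.0367), the direction that Cy3 alone gave.

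**Figure D3:**
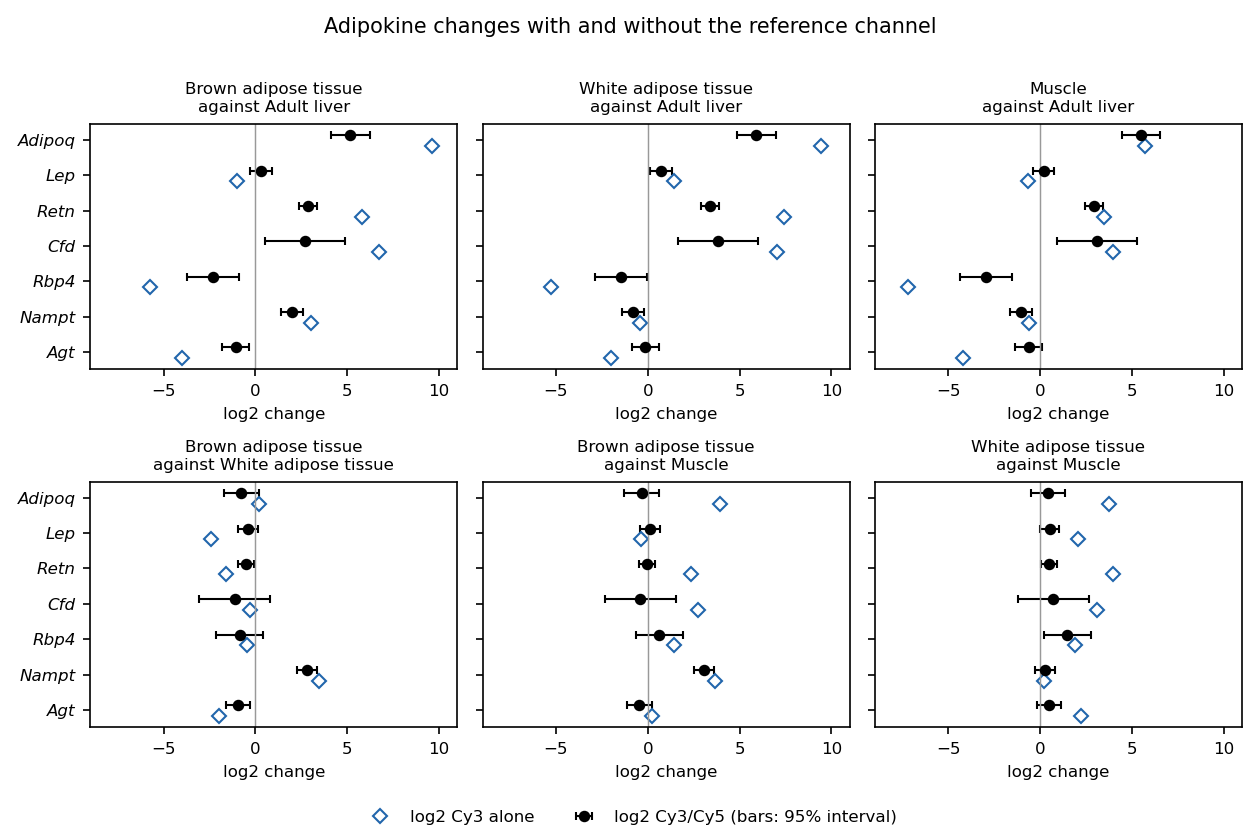
Log2 change of each adipokine gene in 6 comparisons of brown adipose tissue, white adipose tissue, muscle and adult liver, from log2 Cy3/Cy5 with its 95% interval (black) and from log2 Cy3 alone (blue diamonds). In white and in brown adipose tissue over muscle the black points of Adipoq, Retn and Cfd lie between -0.41 and 0.73 and the blue ones between 2.36 and 3.98, while Nampt lies above 2 on both scales in all 3 comparisons of brown adipose tissue.

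Between the kinds of fat, Nampt was the only member called. It gave 1.87, 1.64 and 2.17 on the brown adipose tissue arrays, against -0.94, -0.82 and -0.93 in white adipose tissue, -1.16, -1.56 and -0.82 in muscle and -0.11 and -0.12 in adult liver. The 3 brown adipose tissue arrays were the highest of the series for this enzyme and overlapped no other array. The change was 2.79 ± 0.26 in brown over white adipose tissue (adjusted p = 1.40e-07), 3.07 ± 0.26 over muscle (adjusted p = 1.76e-08) and 2.01 ± 0.29 over adult liver (adjusted p = 1.03e-05).

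All 3 Nampt probes carried this pattern. The other 2 probes gave 2.19 and 2.97 in brown over white adipose tissue, 3.09 and 3.29 over muscle, and 1.53 and 2.05 over adult liver, with adjusted p over all probes of 0.000153 or lower. In Cy3 alone Nampt was 3.46 higher in brown than in white adipose tissue, 4.17 relative to the median of all genes. Nampt was 1 of 7 members called higher in brown than in white adipose tissue and none was called lower, against 9.63% higher and 9.34% lower over all genes, with medians of -0.77 over the members and 0.03 over all genes.

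No other member was called between the kinds of fat on the ratio scale. Agt gave 4.08, 4.07 and 4.02 in brown adipose tissue and 4.96, 4.99 and 5.09 in white adipose tissue, with no overlap. The difference of -0.96 ± 0.32 had an adjusted p of 0.022 but fell short of 1 log2 unit, while Cy3 alone gave -2.00 and called it (adjusted p = 2.07e-05), or -1.28 relative to the median of all genes. Adipoq was at -0.77 ± 0.45 (adjusted p = 0.198) on the ratio scale and at 0.19 in Cy3 alone (adjusted p = 0.764). Retn was at -0.52 ± 0.21 (adjusted p = 0.0556) on the ratio scale and at -1.62 in Cy3 alone (adjusted p = 0.00224), where all genes had a median of -0.71. Fat arrays of both kinds shared no slide or scan day, and group cannot be told apart from batch.

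Rbp4 and Agt were highest in liver and hepatocytes. Rbp4 gave 5.92 and 8.96 in hepatocytes, 6.20 and 8.16 in whole liver and 5.94 and 6.52 in adult liver, against 4.83, 4.63 and 4.83 in white adipose tissue, 4.18, 4.23 and 3.30 in brown adipose tissue and 3.54, 3.39 and 2.90 in muscle. Agt gave 5.81 and 7.57 in hepatocytes, 5.58 and 6.90 in whole liver and 5.20 and 5.09 in adult liver. On the ratio scale replicate 2 of hepatocytes and of whole liver, which lay on the same slide, stood above all other arrays in both genes. In Cy3 alone they did not: the highest whole liver value was 6.88 for Agt, against 7.29 and 7.72 in adult liver, and both hepatocyte arrays exceeded whole liver for Rbp4 (10.48 and 10.82, against at most 10.40).

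Both genes were measured on every fat array. Rbp4 was called lower than in adult liver in brown adipose tissue (-2.32 ± 0.68, adjusted p = 0.00791) and in muscle (-2.95 ± 0.68, adjusted p = 0.00096), while white adipose tissue gave -1.46 ± 0.68 (adjusted p = 0.088). Agt gave -0.13 ± 0.36 in white adipose tissue over adult liver (95% interval -0.87 to 0.61, adjusted p = 0.802) and -1.09 ± 0.36 in brown adipose tissue (adjusted p = 0.0165). Without adult liver replicate 2 the calls of Rbp4 and Agt in brown adipose tissue were lost, at adjusted p 0.0775 and 0.0615, and without replicate 1 that of Agt (0.0878). Agilent's log ratio gave Agt -1.06 there (adjusted p = 0.178).

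The Cy5 signal of both genes also followed Cy3, and Cy3 alone gave wider gaps. White adipose tissue over adult liver gave -5.28 for Rbp4 (adjusted p = 1.05e-09) and -1.98 for Agt (adjusted p = 4.14e-05), with a median of 0.27 over all genes. Muscle over adult liver gave -7.19 and -4.22, with a median of -0.41. On that scale 6 of 7 members were called in white adipose tissue over adult liver, where the ratio called 3.

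Pancreas held little of either gene. Rbp4 gave 1.55 and 1.85 and Agt 0.91, not above background, and 0.93, below every adult liver array. The changes in pancreas over adult liver were -4.53 ± 0.74 for Rbp4 (adjusted p = 4.90e-05), -4.22 ± 0.39 for Agt (adjusted p = 2.85e-08) and -1.74 ± 0.31 for Nampt (adjusted p = 0.000158). These 3 were called lower and none higher, against 12.6% lower and 16.4% higher over all genes, with medians of -0.23 and 0.07. Cfd was at 4.27 and 4.04, just under the adult liver arrays, and its change of -0.23 had a 95% interval from -2.62 to 2.15.

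Liver organoids in expansion medium were below adult liver in Agt, Rbp4, Cfd and Nampt. Agt gave 0.09 and 0.74 in EM organoids, above background on replicate 1 only, against 5.20 and 5.09 in adult liver, and Rbp4 gave 3.09 and 4.16. Cfd was not above background on either EM array, and Nampt gave -1.49 and -2.02. None of these overlapped adult liver, at -4.73 ± 0.39 for Agt (adjusted p = 4.64e-09), -2.61 ± 0.74 for Rbp4 (adjusted p = 0.00665), at least 8.37-fold lower for Cfd (adjusted p = 0.00893) and -1.64 ± 0.31 for Nampt (adjusted p = 0.000248). The Cfd ratios of the EM arrays, 0.28 and 0.82, did overlap whole liver (0.28 and 2.33) and hepatocytes (0.65 and 0.80).

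These 4 of 7 members were called lower and none higher in EM organoids than in adult liver, against 17.6% lower and 14.4% higher over all genes, with medians of -1.64 and -0.09. Without EM replicate 1 the calls of Cfd and Rbp4 were lost, at adjusted p 0.0547 and 0.0778, and 2 members stayed called, and without adult liver replicate 2 that of Rbp4 was lost (adjusted p = 0.0585). Of the other 2 Nampt probes, 1 gave -1.72 (adjusted p over all probes 0.000114) and 1 gave -0.53 (0.100). EM replicate 1 and adult liver replicate 1 were scanned on the same day, and the differences within that day were -5.11 for Agt, -2.85 for Rbp4, -4.16 for Cfd and -1.38 for Nampt.

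The single DM organoid array was higher in 2 of these. Agt stood at 2.77 on it, against 0.09 and 0.74 in EM organoids, and Nampt at -0.24, against -1.49 and -2.02. The changes were 2.35 ± 0.48 for Agt (adjusted p = 0.002) and 1.51 ± 0.38 for Nampt (adjusted p = 0.0124), with the lone array assumed to vary like the other groups, so these p-values, and the calls in this comparison below, hold no spread of the DM organoid itself. Rbp4 was at 3.38, between the EM arrays, and Adipoq, Lep, Retn and Cfd were not above background on the DM or EM arrays.

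In DM against EM organoids 2 of 7 members were called higher and none lower, against 6.25% higher and 4.02% lower over all genes, with medians of 0.06 and 0.04. On the slide that held both, DM exceeded EM replicate 2 by 2.02 for Agt and 1.77 for Nampt. Without EM replicate 2 Nampt was not called (1.24, adjusted p = 0.0633), and Agilent's log ratio called neither gene (adjusted p 0.0514 for Agt and 0.126 for Nampt). In Cy3 alone Nampt was at 0.90 (adjusted p = 0.335). The other 2 Nampt probes gave 1.22 and 0.31 (adjusted p over all probes 0.0386 and 0.627).

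Sorted duct cells had far less Agt and Rbp4 than hepatocytes. Agt gave 1.82 and 1.89 in sorted duct cells, against 5.81 and 7.57 in hepatocytes, and Rbp4 gave 3.73 and 5.04, against 5.92 and 8.96. Nampt went the other way, at -0.03 and -0.13 in sorted duct cells, against -0.95 and -1.36 in hepatocytes. The changes were -4.83 ± 0.39 for Agt (adjusted p = 4.65e-09), -3.06 ± 0.74 for Rbp4 (adjusted p = 0.00276) and 1.08 ± 0.31 for Nampt (adjusted p = 0.0111).

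Here 1 member was called higher and 2 lower, against 11.9% higher and 11.5% lower over all genes, with medians of -0.12 and 0.00. Within the 2 slides that held both groups, Agt differed by -4.0 and -5.67, Rbp4 by -2.19 and -3.92 and Nampt by 0.92 and 1.24. The Rbp4 and Nampt calls were lost without sorted duct cell replicate 1 (-2.40 and 1.03, adjusted p 0.0537 and 0.0622). Without hepatocyte replicate 2 the Rbp4 change was -1.54 (adjusted p = 0.128) and that of Nampt 0.87 (adjusted p = 0.113). The other 2 Nampt probes gave 0.40 and 0.16 and were not called, and Cy3 alone gave 0.85 (adjusted p = 0.130).

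The hepatocyte fraction was set against whole liver, the tissue it came from. No member was called between hepatocytes and whole liver in limma, against 0.423% higher and 0.375% lower over all genes, with medians of -0.15 and 0.01. Nampt alone had an unadjusted p under 0.05, at -1.55 ± 0.38 and adjusted p = 0.0578, with only replicate 2 of whole liver in the fit because the spot on replicate 1 was an outlier. Both groups shared their 2 slides and scan days, and Nampt was called with slide as a block (-1.63, adjusted p = 0.0281), scan day as a block (-1.67, adjusted p = 0.0188) or the replicate number as a block (-1.72, adjusted p = 0.0133). On the slide where both groups measured it the difference was -1.76. The other 2 Nampt probes, measured on both arrays, gave -1.60 and -1.22 (adjusted p over all probes 0.0139 and 0.025).

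Lgr5-sorted cells had 1.54 and 1.31 for Agt, against 5.58 and 6.90 in whole liver, and 3.42 and 1.75 for Rbp4, against 6.20 and 8.16. Neither gene overlapped between the groups. The sorted cells were from day 6 of CCl4 treatment, and whole liver was taken as undamaged. Sorting and treatment cannot be told apart here. The changes were -4.81 ± 0.39 for Agt (adjusted p = 6.55e-09) and -4.60 ± 0.74 for Rbp4 (adjusted p = 5.69e-05), and within the 2 shared slides they were -4.04 and -5.59 for Agt and -2.78 and -6.41 for Rbp4. These 2 of 7 were called lower and none higher, against 9.56% lower and 11.8% higher over all genes, with medians of -0.11 and 0.05.

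The marker lists moved with these 2 genes. The 8 hepatocyte markers summed to 32.1 and 18.7 times the upper-quartile signal in Lgr5-sorted cells, against 3401 and 3353 times in whole liver, and the 7 macrophage markers to 582 and 138 times, against 41.1 and 79.0 times. Probes above background made up 21.5 and 18.5% on the Lgr5-sorted arrays, against 45.5 and 35.5% on whole liver. The upper quartile thus lay among probes not above background in Lgr5-sorted cells only, and the sums of both groups are not on a like scale. Of the 6 bile duct markers, 2 and 1 were above background on the Lgr5-sorted arrays. Their part in the result was not tested. Nampt gave 1.44 and 0.31 in Lgr5-sorted cells, against 0.40 on the 1 whole liver array in the fit (0.48 ± 0.38, adjusted p = 0.453). This value depended on the array and the probe. It was -0.08 without Lgr5-sorted replicate 1 and 1.04, and called, without replicate 2 (adjusted p = 0.045), and the other 2 probes, measured on both whole liver arrays, gave -0.59 and -0.55 (adjusted p over all probes 0.207 and 0.141). In Cy3 alone it was -1.40 (adjusted p = 0.0323), with the same limit of scale as the marker sums.

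After CCl4, Nampt was the only member called on the ratio scale. It gave -0.11 and -0.12 in adult liver and 0.40 on the 1 whole liver array in the fit, then -1.56 and -1.51 at day 3 and -0.65 and -1.15 at day 13. Both day 3 arrays lay below all undamaged livers, and so did both day 13 arrays. Taking undamaged liver as the mean of adult and whole liver, the change was -1.68 ± 0.29 at day 3 (adjusted p = 0.00056) and -1.04 ± 0.29 at day 13 (adjusted p = 0.0676). In Cy3 alone the day 3 change was -0.86 and not called (adjusted p = 0.128), with a median of -0.42 over all genes.

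The other 2 Nampt probes gave -1.42 and -1.86 at day 3 (adjusted p over all probes 0.00104 and 6.76e-06), and -0.62 (adjusted p = 0.282) and -1.59 (adjusted p = 0.000588) at day 13. At day 3 no member was called higher and 1 lower, against 4.96% higher and 2.02% lower over all genes, with medians of -0.33 and 0.00. Since only whole liver replicate 2 measured the brightest probe, the Nampt change could not be fitted without that array. CCl4 livers shared no slide or scan day with undamaged livers, and group cannot be told apart from batch.

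Rbp4 and Agt were not called at either time after CCl4 on the ratio scale. Rbp4 gave 6.17 and 6.35 at day 3 and 5.90 and 6.09 at day 13, beside 5.94 to 8.16 in the undamaged livers. Agt gave 5.42 and 5.30 at day 3 and 5.37 and 5.35 at day 13, within the range of the undamaged livers (5.09 to 6.90). Its change was -0.33 ± 0.34 at day 3 and -0.34 ± 0.34 at day 13, with 95% intervals from -1.04 to 0.37 at both times. In Cy3 alone Agt changed by -1.30 at day 3 and was called (adjusted p = 0.00856), beside a median of -0.42 over all genes. On that scale Agt was 1.68 higher at day 13 than at day 3 (adjusted p = 0.00553), where the ratio scale gave 0.00 and the median of all genes was 0.19.

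The fat genes of CCl4 liver rested on 1 array. At day 13 replicate 1 gave Adipoq 3.17, Cfd 6.84 and Retn 1.09, where replicate 2 gave 0.22, 0.60 and -0.05, with Adipoq and Retn not above background. Replicate 1 was also above the adult and whole liver arrays in all 3 genes. At day 3, replicate 2 was the higher one, at 0.83 for Adipoq and 2.64 for Cfd, against 0.00 and 0.21, not above background, on replicate 1.

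The same day 13 array carried Ucp1, the adipocyte gene Plin1 and muscle markers. Of the brown adipocyte list only Ucp1 is given here. Ucp1, the uncoupling protein of brown adipocytes, gave 3.72 on replicate 1 and 0.01, not above background, on replicate 2. Plin1 gave 2.01 and -0.03, and the muscle genes Acta1 and Ckm gave 2.99 and 2.67 on replicate 1 and -1.09 and 0.03 on replicate 2. The 6 skeletal muscle markers summed to 28.4 times the upper-quartile signal on replicate 1 and 1.92 times on replicate 2, and the 8 hepatocyte markers to 3349 and 3273 times. The part of other tissue in the Adipoq, Cfd and Retn values was not tested.

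With both arrays, no member was called at day 13 over undamaged liver in limma, against 0.907% higher and 0.418% lower over all genes, with medians of -0.04 and 0.01, and 2 (Adipoq and Nampt) had an unadjusted p under 0.05. Adipoq stood at 1.49 ± 0.48 (adjusted p = 0.115) and Cfd at 0.87 ± 0.99 (adjusted p = 0.835). With replicate 1 alone they were 2.97 and 4.0, and with replicate 2 alone Cfd was at -2.25. No member was called at day 13 over day 3, against 2.13% higher and 3.54% lower over all genes, with medians of 0.50 and 0.01 and with Adipoq alone at an unadjusted p under 0.05. Without replicate 2 of day 13, Adipoq, Retn and Cfd were called higher than at day 3, at 2.75, 1.07 and 5.42, with the lone array assumed to vary like the other groups.

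**Figure D4:**
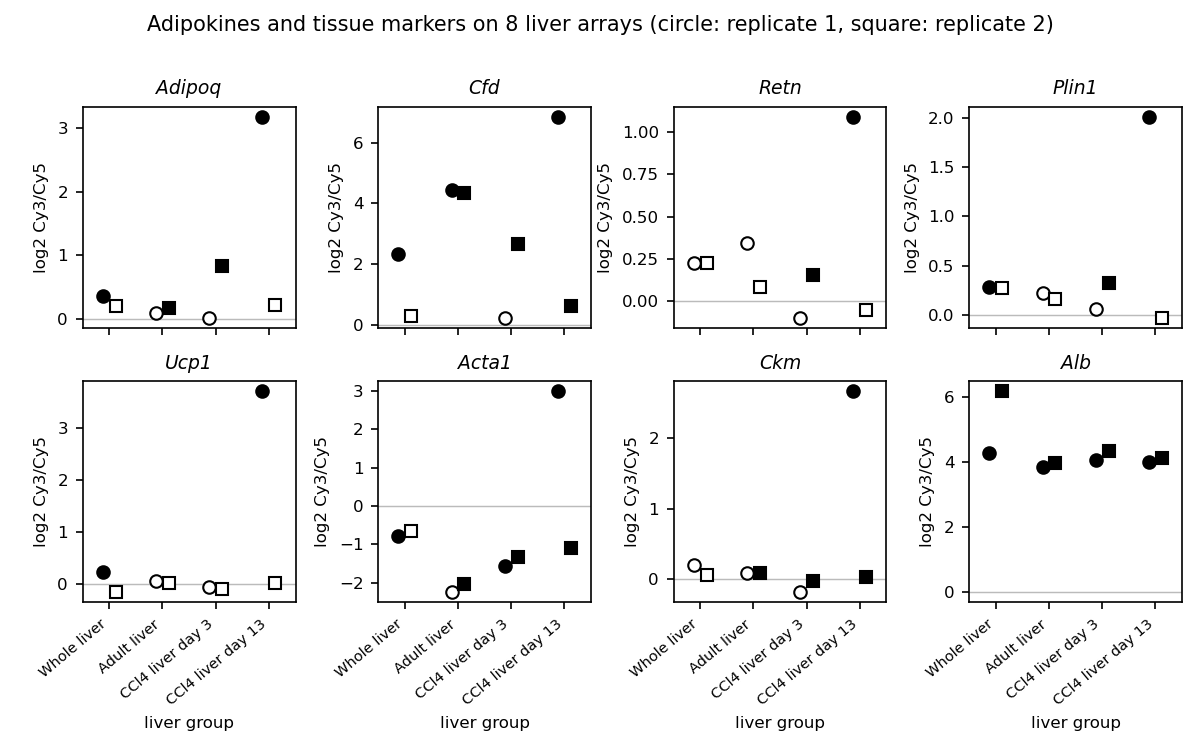
Log2 Cy3/Cy5 of 3 adipokine genes and 5 tissue markers on the 8 liver arrays, with circles for replicate 1 and squares for replicate 2, filled where Cy3 was well above background. CCl4 liver day 13 replicate 1 stands above all other liver arrays for Adipoq, Cfd, Retn, Plin1, Ucp1, Acta1 and Ckm, and its Alb value of 3.99 lies among those of the others.

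The receptors of these hormones were tested as a list, and the median of all genes lay between -0.09 and 0.07 in the comparisons used for this and the other lists. Adipor2, the adiponectin receptor of liver, was 2.88 higher in white adipose tissue and 2.87 higher in brown adipose tissue than in muscle (log2), and it changed by -2.71 in EM organoids over adult liver, by -3.72 in sorted duct cells over hepatocytes and by -2.14 in Lgr5-sorted cells over whole liver. Cdh13 (T-cadherin), which binds adiponectin at the cell surface, was 2.08 higher in white adipose tissue, 1.88 higher in brown adipose tissue, 3.15 higher in muscle and 2.95 higher in EM organoids than in adult liver. Lepr was at least 2.21-fold higher in muscle than in adult liver. Of 10 receptors tested on a list of 11, 3 were called higher and 1 lower in white adipose tissue than in adult liver (median 0.35), beside 14.5% and 13.4% of all genes. In brown adipose tissue 3 were higher and none lower (median 0.08), beside 15.8% and 13.3%, and in EM organoids 1 was higher and 2 lower (median -0.33), beside 14.4% and 17.6%. These shares over all genes hold for the lists below as well.

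The receptors of angiotensin, which is cut from angiotensinogen, split between fat and liver. Agtr1a changed by -3.0 in white adipose tissue over adult liver and by 1.97 in brown over white adipose tissue, and was at least 26.6-fold lower in EM organoids than in adult liver. Agtr2 was not above background in adult liver and was at least 27.6-fold higher in white adipose tissue, 10.7-fold in brown adipose tissue and 42.9-fold in muscle. Enpep, an aminopeptidase of the pathway, was at least 33.2-fold lower in EM organoids than in adult liver. Of 10 renin-angiotensin genes tested of 11, 2 were called higher and 3 lower in white adipose tissue than in adult liver (median -0.14), beside 14.5% and 13.4% of all genes, and none higher and 3 lower in EM organoids than in adult liver (median -0.36), beside 14.4% and 17.6%. With 10 genes tested, these counts lie near the shares over all genes.

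Most genes around Nampt in NAD synthesis were called lower than in adult liver in fat, muscle, pancreas and EM organoids. Of 12 tested of 13, 8 were called lower and none higher in white adipose tissue than in adult liver (median -2.86), beside 13.4% lower over all genes, 9 lower in brown adipose tissue (median -1.87, beside 13.3%), 10 lower in muscle (median -2.93, beside 15.9%), 10 lower in pancreas (median -2.47, beside 12.6%) and 10 lower in EM organoids (median -3.19, beside 17.6%). Among cells from liver, 11 were called lower in sorted duct cells than in hepatocytes (median -2.70, beside 11.5%) and 11 in Lgr5-sorted cells than in whole liver (median -2.84, beside 9.56%). Naprt, which makes the precursor of NAD from nicotinic acid, was 1.99 higher in brown than in white adipose tissue. Nnmt, which methylates nicotinamide, changed by -2.50 in brown over white adipose tissue and by -8.13 in EM organoids over adult liver, where it was above background on 1 of 2 EM arrays. After CCl4 none of the 12 was called at day 3 over undamaged liver in limma (median -0.25), beside 2.02% called lower over all genes. At an unadjusted p under 0.05 there were 4, a looser threshold for which no share over all genes is given.

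The partners of Rbp4 in retinoid transport were also tested. Ttr, its carrier in plasma, was at least 74.9-fold lower in white adipose tissue and at least 134-fold lower in brown adipose tissue than in adult liver, changed by -5.11 in EM organoids over adult liver, and was 2.78 higher in the DM organoid than in EM organoids, where Rbp4 changed by -0.25. Rbp7, a retinol binding protein of fat and endothelium, was at least 298-fold higher in brown adipose tissue and at least 103-fold higher in white adipose tissue than in adult liver. Of 10 retinoid transport genes tested of 11, 1 was called higher and 4 lower in white adipose tissue than in adult liver (median -0.56), 2 higher and 5 lower in EM organoids (median -0.40), and 4 higher and none lower in DM over EM organoids (median 0.49, beside 6.25% higher over all genes).

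Other genes of the alternative complement pathway were called lower, and none higher, in fat than in liver. Cfb, the substrate of adipsin, changed by -2.55 in white adipose tissue and by -3.60 in brown adipose tissue over adult liver, and C3, the protein that the pathway cleaves, by -1.04 and -3.32. Of 9 genes tested of 10, 5 were called lower and none higher in white adipose tissue (median -1.19) and 6 lower and none higher in brown adipose tissue (median -3.32). C3 was 4.77 higher in white adipose tissue than in muscle and changed by -6.70 in the DM organoid over EM organoids.

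Relatives of adiponectin and resistin were tested too. C1qtnf12, a C1q and TNF related protein of fat, was 5.05 higher in white adipose tissue and 5.09 higher in brown adipose tissue than in adult liver, and 4 and 5 of 8 family members were called higher in those comparisons with none lower (medians 1.20 and 1.87). Retnlg, a resistin relative of myeloid cells, was at least 4.35-fold higher in muscle and at least 1.97-fold higher in brown adipose tissue than in adult liver, and it was not called in white adipose tissue. The 8 neutrophil markers summed to 28.9 to 58.2 times the upper-quartile signal in muscle, 14.1 to 27.0 times in brown adipose tissue, 13.0 to 23.4 times in white adipose tissue and 3.79 and 4.71 times in adult liver, and their part in the Retnlg values was not tested.

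Of 14 other adipokines tested of 15, 5 were called higher and none lower in white adipose tissue than in adult liver (median 0.18), beside 14.5% higher over all genes, and 1 higher and 5 lower in brown than in white adipose tissue (median -0.57), beside 9.63% and 9.34%. Nrg4, a growth factor of brown fat that acts on liver, was 2.71 higher in brown than in white adipose tissue and 4.73 higher than in muscle. Rarres2 (chemerin) changed by -8.0 and Lcn2 (lipocalin 2) by 4.89 in EM organoids over adult liver. Lcn2 was also 3.74 higher at day 3 after CCl4 than in undamaged liver and changed by -3.58 at day 13 over day 3.

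Adipocyte genes that are not secreted were counted beside the adipokines. Of 14 genes tested of 15, 10 were called higher and 2 lower in white adipose tissue than in adult liver (median 1.94), 9 higher and 1 lower in white adipose tissue than in muscle (median 1.52, beside 4.59% and 8.05% of all genes), none higher and 10 lower in EM organoids than in adult liver (median -3.04, beside 17.6% lower over all genes), and 4 higher and none lower in DM over EM organoids (median 0.78, beside 6.25% higher). Lpl, the lipase that frees fatty acids from lipoproteins, was 6.96 higher in white adipose tissue than in adult liver. Pparg, the master regulator of fat cells, was 3.40 higher in the DM organoid than in EM organoids, where Adipoq, Retn and Lep were not above background.

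Over the 13 group means, Adipoq, Retn and Cfd ran together, with r of 0.99 for Adipoq with Retn, 0.92 for Adipoq with Cfd and 0.90 for Retn with Cfd. Lep, above background in only 2 groups, correlated with Adipoq at 0.82, and Rbp4 with Agt at 0.85. Nampt correlated with no other member above 0.21. These values describe group means that share the Cy5 RNA and the array design.

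Among all genes tested, the patterns most like Adipoq were those of Plin1 (r = 0.99), Cma1 (0.98) and Cpa3 (0.98), where Cma1 and Cpa3 encode proteases of mast cells. Retn was nearest to Plin1 (0.99), Cpa3 (0.98) and B3galt2 (0.97), and Lep to Adcy5 (0.95), the file-named probe NAP062447-1 (0.94) and Ffar2 (0.93). Cfd was nearest to NAP025923-1 (0.99), Tbc1d4 (0.91) and Prss12 (0.91). Agt was nearest to Ndrg2 (0.96), Thrsp (0.94) and Fam8a1 (0.94), Rbp4 to Pgrmc1 (0.94), Rmdn2 (0.94) and Itih3 (0.92), and Nampt to Rmi1 (0.91), NAP050033-1 (0.88) and 1700084E18Rik (0.86).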

How the data were processed

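The members and gene lists were chosen with earlier results of these data known. Per the file headers, the deposited intensity values are median pixel signals of each spot in green (Cy3, sample) and red (Cy5, reference RNA), with local backgrounds, read by Feature Extraction 10.5.1.1 (8.5.1.1 per the submitters' processing notes). The deposited log10 ratios of red over green are Agilent's dye-normalized values, and the value table held the same numbers. The mouse build in the probe positions is mm9, per the file headers.

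Each array had 45018 spots (1639 control spots). Background was corrected with normexp (offset 50), then loess was run within each array in limma 3.58.1 (R 4.3.3), flagged outlier spots were left out (0.495%) and spots averaged per probe. Control spots had weight 0. Ratios are Cy3 over Cy5. Probes were kept where 2 or more arrays had Cy3 above background, with the probe of highest mean Cy3 for each gene. Names came from RefSeq for 16786 genes and from the files for 4261. lmFit and eBayes gave a mean per group over 13 groups and 15 comparisons, with Benjamini-Hochberg adjustment over 21047 genes. Called means adjusted p under 0.05 and a change of at least 1. "At least" folds set the brighter group against the lowest signal well above background on the other group's arrays, in Cy3 after loess and Aquantile or over each array's upper quartile, with the lower of both printed (the second scaling was chosen after seeing the data), and are open to dye bias because no dyes were swapped. Undamaged liver is the mean of the adult and whole liver group means. The number of arrays limits the precision. The steps were tested on simulated data.

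All 7 members were described. Other genes came from lists of adipocyte genes, adipokine receptors, renin-angiotensin, NAD synthesis, retinoid transport, alternative complement, C1q and TNF relatives, resistin relatives and other adipokines. Those named were up to 2 largest called rises and falls of a list, and some direct receptors, substrates or partners of a member. Others of these, such as Adipor1, Stra6 and Ren1, were tested within the lists but their values are not given. The nearest genes were the 3 of highest correlation over group means. Marker sums are Cy3 over each array's upper quartile. On arrays with few probes above background that quartile lies near the background, so sums and Cy3-alone values of such arrays are not on a like scale with the others. The labels do not say that replicate numbers pair samples. Same-numbered fat and muscle arrays had deviations correlated at -0.19 to 0.28 over 9 pairs. In sorted duct cells, Lgr5-sorted cells, hepatocytes and whole liver each number had a slide and scan day of its own, and the 6 pairs of groups had correlations of 0.05 to 0.44, so values with the replicate number as a block are given where they change a call. Alternatives changed the background, the scaling, the probe and fold rules, blocks, weights and arrays left out. Exon and intron positions were not assigned, since no mm9 annotation was used here.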

Additional observations from a re-analysis of the deposited data

How the results depend on the processing

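Counts of called members, of 7, follow, with the count on the loess ratio in brackets; the cause of each shift was not tested. With Cy3 alone, 6 were called in white adipose tissue over adult liver (3), 4 in brown over white adipose tissue (1), 6 in white adipose tissue over muscle (0), 5 in brown adipose tissue over muscle (1), 6 in pancreas over adult liver (3), 1 in DM over EM organoids (2) and 1 in day 13 over day 3 (0). Directions turned there for Adipoq (3.92), Retn (2.36) and Cfd (2.76) in brown adipose tissue over muscle, Retn (1.31) in pancreas over adult liver, Nampt (-1.40) in Lgr5-sorted cells over whole liver and Agt (1.68) in day 13 over day 3. None of these 6 was called on the loess ratio. The Cy3-alone calls of Lep (1.58) and Retn (1.31) in pancreas over adult liver came from arrays where neither gene was above background. All genes had a median of 0.71 in that comparison. With Agilent's log ratio, 2 were called in brown over white adipose tissue (1), 1 in white adipose tissue over muscle (0), 2 in brown adipose tissue over muscle (1), 3 in muscle over adult liver (5), 0 in DM over EM organoids (2) and 1 in hepatocytes over whole liver (0).

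Brown over white adipose tissue had 2 calls (1) with no background subtraction, no fold minimum or the groups compared alone. White adipose tissue over muscle had 1 (0) with no background subtraction, array weights, scan day as a block or the groups alone. Hepatocytes over whole liver had 1 (0) with the mean of all probes, slide as a block or scan day as a block. Day 13 over undamaged liver had 1 (0) with the mean of all probes, array weights or whole liver as the undamaged liver, and day 13 over day 3 had 1 (0) with array weights. The replicate number as a block gave 1 call (0) in hepatocytes over whole liver (Nampt -1.72, adjusted p = 0.0133) and 1 (0) in day 13 over undamaged liver (Nampt -1.12, adjusted p = 0.0168). It lost Cfd in brown adipose tissue over adult liver (adjusted p = 0.0591) and changed no other call. That Cfd call was also lost with slide (adjusted p = 0.0556) or scan day (adjusted p = 0.0939) as a block. Lep was not tested where probes had to be above background on 6 arrays. Aquantile scaling changed no call.

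With 1 array left out, brown adipose tissue over adult liver had 3 to 5 calls (lowest without adult liver replicate 2), EM organoids over adult liver 2 to 4 (without EM replicate 1), DM over EM organoids 1 to 2 (without EM replicate 2), sorted duct cells over hepatocytes 1 to 3 (without duct replicate 1 or hepatocyte replicate 2), hepatocytes over whole liver 0 to 1 (highest without whole liver replicate 1), day 3 over undamaged liver 0 to 1 (0 without whole liver replicate 2, where the Nampt probe has no whole liver value and could not be fitted), and day 13 over undamaged liver 0 to 2 and over day 3 0 to 3 (highest without day 13 replicate 2).

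Over all genes, Cy3 alone called 11199 in brown over white adipose tissue (3993), 6988 in white adipose tissue over muscle (2660), 9277 in brown adipose tissue over adult liver (6125) and 11717 in pancreas over adult liver (6108), and Agilent's log ratio called 1160 in DM over EM organoids (2163) and 7678 in sorted duct cells over hepatocytes (4932). The share of called genes that were higher moved by over 10 points in several comparisons. Cy3 alone gave 29.8% in brown adipose tissue over adult liver (54.4%), 19.5% in brown over white adipose tissue (50.8%), 84.4% in white adipose tissue over muscle (36.3%), 37.2% in muscle over adult liver (55.6%), 71.6% in pancreas over adult liver (56.4%), 17.2% in hepatocytes over whole liver (53.0%), 5.82% in Lgr5-sorted cells over whole liver (55.3%), 58.8% at day 3 over undamaged liver (71.0%) and 47.7% at day 13 over day 3 (37.6%). Agilent's log ratio gave 50.02% in white adipose tissue over muscle, 60.9% in brown adipose tissue over muscle (44.5%), 41.1% in pancreas over adult liver, 49.4% in DM over EM organoids (60.8%), 19.5% in hepatocytes over whole liver and 36.4% in Lgr5-sorted cells over whole liver.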
